A study of Rattus norvegicus with 12 samples.

Results

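Circular RNAs were counted in liver of diabetic Wistar rats after sleeve gastrectomy, in which the surgeon cuts the stomach down to a narrow tube, or after a sham operation. The comparison uses the 5 sleeve gastrectomy and 5 sham libraries, 10 of the 12 of the series. The other 2, labelled as diabetic relapse, are not compared here but were in the same fit. There they entered the filter that set which hosts and junctions were tested, the scaling and the estimate of the spread. All groups were wild type and had the same preparation: 4 weeks on a saturated high-fat diet that gave 60% of its calories as fat, then 1 injection of streptozotocin, which kills pancreatic beta cells, at 35 mg/kg after a 16 h fast. Rats whose fasting glucose then exceeded 16.7 mmol/L were split at random into operated and sham groups matched for weight. The sleeve gastrectomy livers were taken at 3 months; when the sham livers were taken, and whether the rats had eaten, is not stated in the labels. A fat diet with a partial loss of beta cells is a chemical model of diabetes, so both groups share the toxin and the diet, and there is no group without diabetes.

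Circular RNAs form when the splicing machinery joins the end of an exon back to the start of an earlier one, which leaves a closed loop without ends. The loops resist exonucleases, so they are long-lived, and many genes of hepatocytes make several loops from the same exons. A read that crosses the back-splice junction shows the loop but not the level of the gene's linear messenger RNA, and the libraries had been depleted of linear RNA with RNase R. Some loops are listed as intronic in the table, and others map between annotated genes. A loop listed as intronic need not lie within an intron: ciRNA945 of Upp2 (44810826 to 44833052) encloses the exonic circRNA1643 (44823074 to 44833052). In these bulk livers, fewer cells of a type and less circular RNA per cell cannot be told apart. The labels do not say that each library came from its own animal, so each p-value covers the spread among the libraries, which may be partly technical.

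The 5 sham libraries held 30213, 18176, 19212, 19943 and 21509 back-splice reads, and the 5 sleeve gastrectomy libraries held 21161, 20352, 18541, 30520 and 29205. In these 10 libraries 18849 junctions of 5728 host genes had reads. A host gene is the gene that a circle is cut from, and a host's level here is the sum over all its circles. Levels of hosts are in CPM, the host's reads per 1e6 reads of all tested hosts after scaling. Levels given in RPM are per 1e6 of all back-splice reads of the library. The table names some entries by a gene symbol and others by an Ensembl identifier or as intergenic, here called identifier entries. Among values above 0, single reads made up 38.1% in symbol entries and 1.68% in identifier entries, and of 808 junctions written in both ways 14 had a library with reads in both. Abundant identifier entries are also listed at 0 in single libraries, such as circRNA2847 of Uvrag, with 0 reads in sleeve gastrectomy 3 and 50 to 117 in the other 9 libraries. Whether a 0 in an identifier entry is a count of 0 was not tested, so no fold is given against such a group. In symbol entries a group at 0 reads could still reach 27.5 RPM in sham and 25.05 RPM after sleeve gastrectomy, for counting error only. The hepatocyte markers matched the label of the tissue: 13 of 15 had circular reads, at 14993 to 22871 RPM in sham and 18216 to 20489 after sleeve gastrectomy, with Ahsg and Ttr at 0. Of 20 markers of pancreas, stomach and gut, 0 had reads. Markers of stellate cells (5 of 17), macrophages (5 of 16), lymphocytes and granulocytes (3 of 19), endothelium (7 of 15), cholangiocytes (1 of 12) and blood cells (3 of 14) were sparse, and their summed levels overlapped between the groups.

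On average, the sleeve gastrectomy libraries had lower summed circular RNA levels of 2 hosts, Dennd1b and Upp2, than the sham libraries. These were the 2 of 1337 tested hosts past the adjusted threshold of 0.05 in the quasi-likelihood test of edgeR. The share called lower was 0.15% and the share called higher 0%. Neither host passed in DESeq2 (adjusted p = 0.0531 for each). Nor did either pass in edgeR with the 2 groups fitted alone (adjusted p = 0.0814 for each) or with a fit that is not robust (adjusted p = 0.0826 for each). Dennd1b, whose protein activates the small GTPase Rab35 in membrane traffic, was 2.98-fold lower by its group means. Upp2, a uridine phosphorylase that is most active in liver and splits uridine into uracil and ribose phosphate, was 2.34-fold lower.

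Dennd1b had 2913, 2359, 914, 2622 and 2743 CPM in sham libraries 1 to 5, and 581, 1164, 1092, 725 and 314 CPM in sleeve gastrectomy libraries 1 to 5. Sham 3 was low and fell inside the sleeve gastrectomy range; the other 4 sham libraries lay above all 5 sleeve gastrectomy libraries. The means were 2310.1 ± 806 against 775 ± 355 CPM (SD, n = 5 and 5), from 198 and 68 reads, with a log2 fold change of −1.60 (SE 0.34, edgeR adjusted p = 0.0145). Upp2 had 4506, 5148, 6461, 2814 and 3577 CPM in sham and 2906, 1103, 1706, 1949 and 1971 CPM after sleeve gastrectomy. Its groups overlapped at 1 point only, where sleeve gastrectomy 1 lay just above sham 4. The Upp2 means were 4501 ± 1411 against 1927 ± 649.6 CPM (SD, n = 5 and 5), from 374 and 180 reads, with a log2 fold change of −1.22 (SE 0.27, edgeR adjusted p = 0.0145). For each host the sham mean exceeded 5 of 5 sleeve gastrectomy values.

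The calls changed with the libraries and the test used. The count of hosts called was 0 without sham 1, 2 or 5 or without sleeve gastrectomy 4 or 5, and 1 without sham 3 (Dennd1b), sham 4 (Upp2), sleeve gastrectomy 2 (Dennd1b) or sleeve gastrectomy 3 (Dennd1b); it was also 0 in DESeq2, where both hosts had an adjusted p of 0.0531, and 2 in limma-voom and without sleeve gastrectomy 1. Of the alternatives, 10 kept all sham and sleeve gastrectomy libraries, and some of these left out the relapse libraries. Over them the adjusted p ran from 0.00755 to 0.745 for Dennd1b and from 0.00755 to 0.676 for Upp2. The 0.676 was from edgeR without the relapse libraries and with the replicate number as a block.

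**Figure D1:**
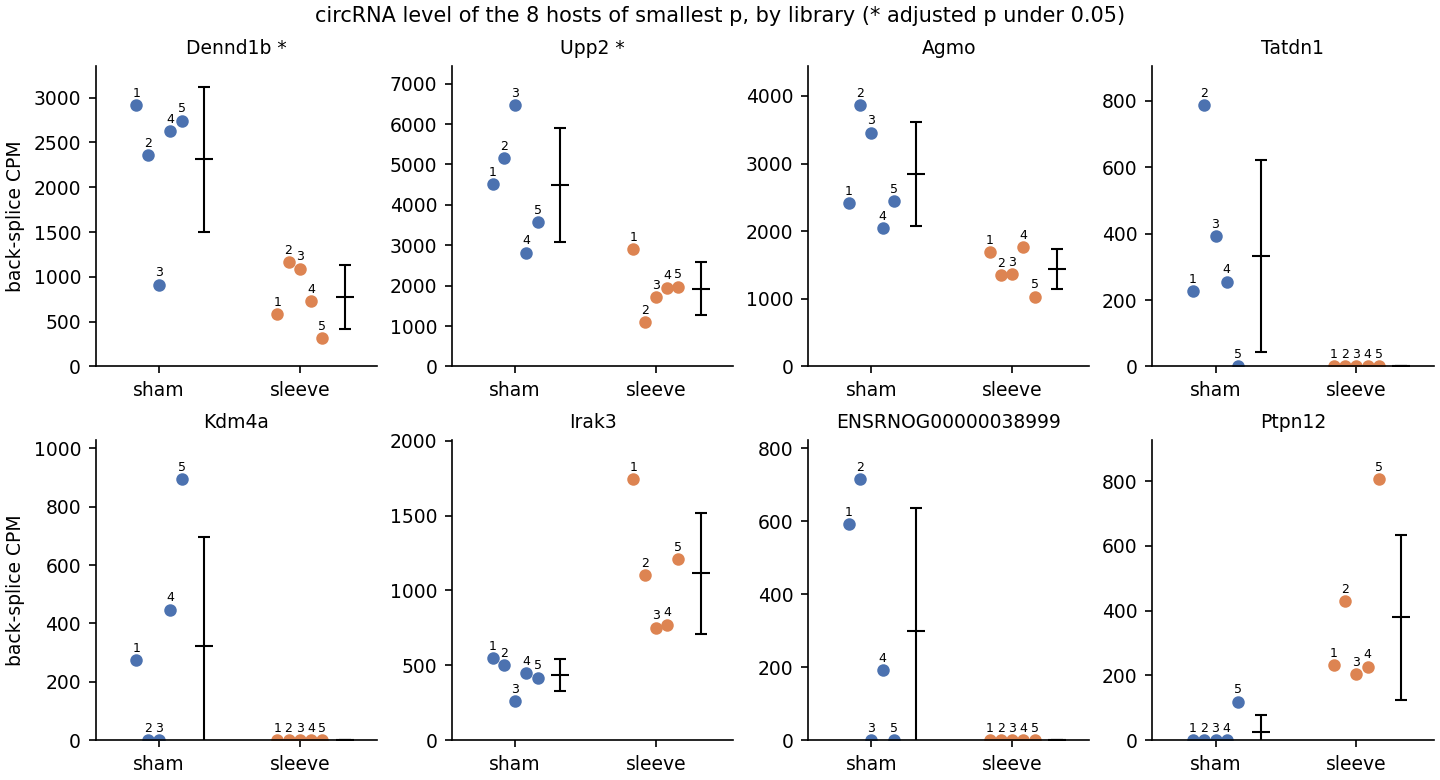
Summed circular RNA level (CPM, linear axis from 0) of the 8 hosts of smallest p in the 5 sham (blue) and 5 sleeve gastrectomy (orange) libraries, with the library number above each point and the mean with its SD as a black bar. Dennd1b and Upp2 passed the adjusted threshold; Agmo, Irak3 and Ptpn12 show groups that do not overlap without passing it, and Tatdn1, Kdm4a and ENSRNOG00000038999 are listed at 0 in all 5 sleeve gastrectomy libraries.

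Dennd1b formed 12 junctions from 266 reads, on chromosome 13 of Rnor_6.0. Of these reads 83.5% came from 4 junctions with the same start, 56114439, and 71.1% ended at the same base, 56129496. The main circle, circRNA62 (chromosome 13, 56114439 to 56129496), is listed as exons 6 to 9. It was read 21, 18, 11, 33 and 28 times in sham and 7, 14, 14, 13 and 4 times after sleeve gastrectomy, a log2 fold change of −1.17 (SE 0.40, edgeR adjusted p = 0.926). The reads overlapped, with sham 3 the lowest sham library and sleeve gastrectomy 2 and 3 the highest of theirs. A shorter circle with the same start, circRNA5889 (chromosome 13, 56114439 to 56121638), was read 19, 6, 0, 8 and 14 times in sham and 0, 0, 2, 0 and 0 times after sleeve gastrectomy, a log2 fold change of −4.17 (SE 1.12, edgeR adjusted p = 0.453). It is an identifier entry, so its zeros carry the limit given above. The third tested circle, circRNA61 (also written circRNA9266, exons 4 to 9), had 19 reads in sham, all in sham 1 and 2, and 7 after sleeve gastrectomy. Of these reads 100% were in the identifier entry, circRNA9266, so the zeros of this circle carry the same limit. The remaining 9 junctions had at most 7 reads in a group.

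Within Dennd1b, circRNA62 took 61.5 ± 19.5% of the reads in sham and 73.9 ± 11.6% after sleeve gastrectomy, and circRNA5889 took 19.6 ± 12.3% and 2.5 ± 5.6% (SD, n = 5 and 5). The test of the mix of circles within the host did not pass (edgeR adjusted p = 0.998). Of Dennd1b's reads 33.8% came from identifier entries. With entries named by a symbol alone, Dennd1b had a log2 fold change of −1.17 and did not pass (edgeR adjusted p = 0.531). That setting left out circRNA5889 and the reads of circRNA61 given above.

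Upp2 formed 6 junctions from 554 reads, on chromosome 3. All but 1 of them ended at base 44833052, which took 98.2% of the reads, and 68.2% started at 44823074. The main circle, circRNA1643 (chromosome 3, 44823074 to 44833052, exons 3 to 6), was read 65, 45, 71, 28 and 40 times in sham and 22, 14, 12, 39 and 32 times after sleeve gastrectomy. Its levels overlapped, with a log2 fold change of −1.23 (SE 0.31, edgeR adjusted p = 0.365). The second, circRNA1644 (chromosome 3, 44830694 to 44833052, exons 5 and 6), was read 32, 19, 19, 16 and 16 times in sham and 21, 4, 12, 4 and 9 times after sleeve gastrectomy, with a log2 fold change of −1.06 (SE 0.43, edgeR adjusted p = 0.996). Both circles had fewer reads, and their shares of the host were close: circRNA1643 held 66.0% of the host's reads on average in sham (62.5 to 71.7%) and 66.6% after sleeve gastrectomy (44 to 90.7%), and circRNA1644 held 28.2% (19.2 to 36.4%) and 28.4% (9.30 to 48%). Of Upp2's reads 1.81% came from identifier entries, and with symbol entries alone it kept its call (log2 fold change −1.23, edgeR adjusted p = 0.00927).

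**Figure D2:**
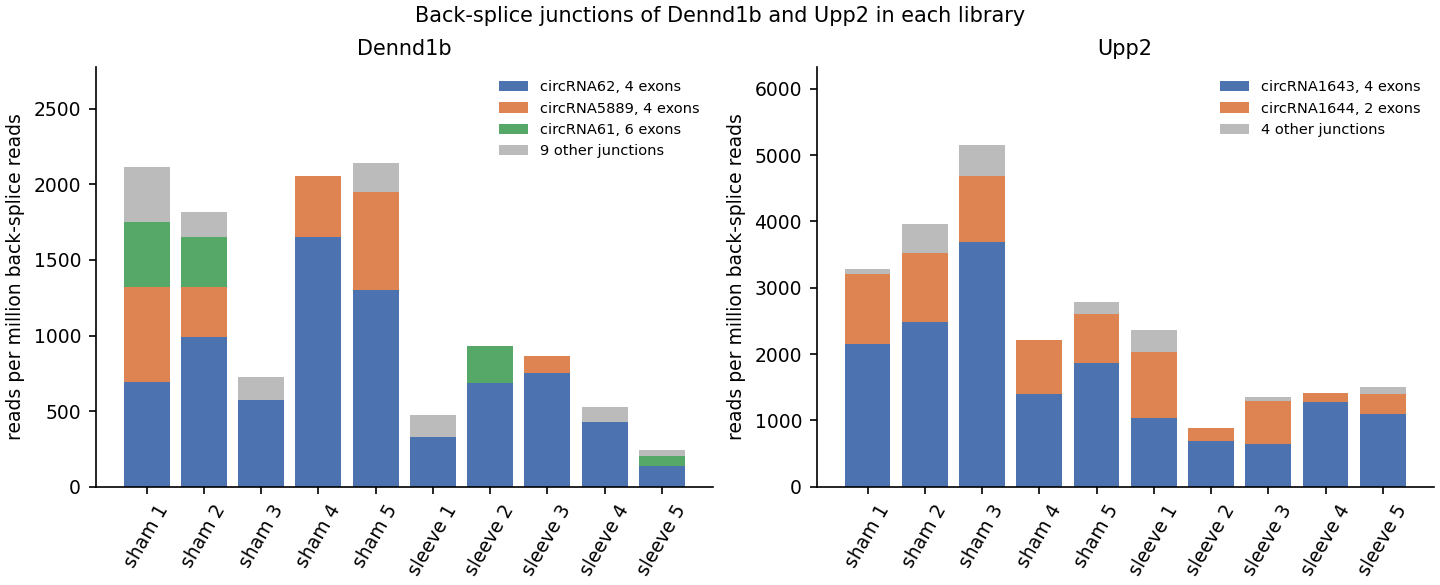
Level in RPM of each back-splice junction of Dennd1b (left) and Upp2 (right), stacked, for sham libraries 1 to 5 and sleeve gastrectomy libraries 1 to 5; untested junctions are pooled in grey. Dennd1b had fewer reads after sleeve gastrectomy in circRNA62 and in circRNA5889, which is listed at 0 in 4 of 5 sleeve gastrectomy libraries, while the 2 tested circles of Upp2 held close mean shares in both groups.

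The start regions of both hosts are shown because these were the hosts that passed; no binding or methylation was measured here. The sequences are the 250 bases before the first annotated start in RefSeq, build GRCr8, a newer build than that of the table, on the + strand: Upp2 at chr3:63681576-63681825 and Dennd1b at chr13:53096467-53096716, with motif matches in capitals.
Upp2: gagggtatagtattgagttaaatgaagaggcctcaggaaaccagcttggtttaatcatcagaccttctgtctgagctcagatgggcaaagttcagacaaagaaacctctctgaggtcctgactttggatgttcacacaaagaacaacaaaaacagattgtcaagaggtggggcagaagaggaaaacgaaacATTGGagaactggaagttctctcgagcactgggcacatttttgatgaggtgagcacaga
Dennd1b: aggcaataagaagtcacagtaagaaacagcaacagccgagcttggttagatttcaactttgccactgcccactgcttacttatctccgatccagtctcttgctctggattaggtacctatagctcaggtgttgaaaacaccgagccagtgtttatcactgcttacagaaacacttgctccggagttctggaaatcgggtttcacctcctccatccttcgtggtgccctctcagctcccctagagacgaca
Both strands were searched for the TATA box (TATAAA), the CCAAT box (CCAAT), the GC box (GGGCGG), an E-box (CACGTG), an HNF1 half-site (GTTAAT), a nuclear receptor half-site (AGGTCA) and a FOXA core (TGTTTAC). These motifs occur in 12.9%, 34%, 30.5%, 5.59%, 6.45%, 14.1% and 3.21% of 33469 start windows of the same length. Upp2, with 1 annotated start, held a CCAAT box read on the opposite strand, and the Dennd1b window held 0 of the 7; Dennd1b has 8 annotated starts, of which the first is shown. Over all 8 Dennd1b windows, 2 held a TATA box, 2 a GC box, 1 a CCAAT box and 1 a nuclear receptor half-site. A match of letters is a description of the sequence only.

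Beyond these 2 hosts, no other passed. At an unadjusted p under 0.05 edgeR had 27 hosts lower (2.02%) and 23 higher (1.72%), and of all 1337 tested hosts 668 had a log2 fold change below 0. DESeq2 had 58 hosts and limma-voom 86 at an unadjusted p under 0.05. The 22 further hosts named here follow the order of p. They are described by what their genes do.

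**Figure D3:**
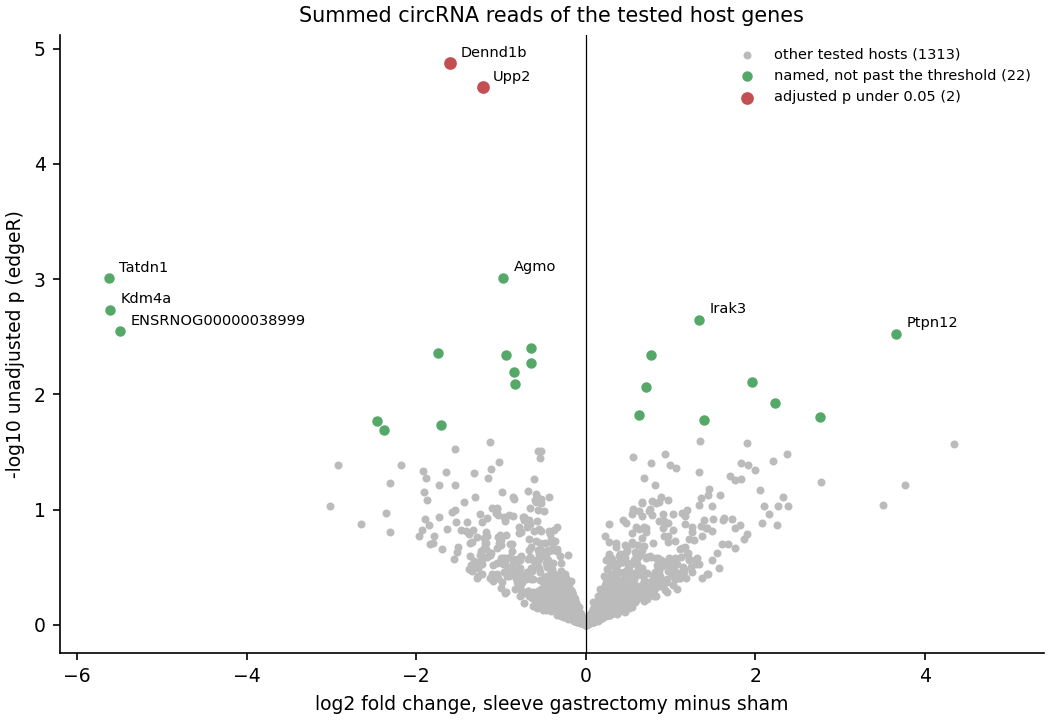
Log2 fold change (sleeve gastrectomy minus sham) against the unadjusted p of edgeR on a −log10 axis for the 1337 tested hosts. The 2 hosts past the adjusted threshold (red) are both on the lower side, and the 22 other named hosts (green) fall on both sides.

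Among hosts of lipid metabolism, Agmo, a monooxygenase that cleaves ether lipids, had 2412, 3861, 3459, 2046 and 2444 CPM in sham and 1685, 1348, 1365, 1768 and 1030.3 CPM after sleeve gastrectomy. The groups did not overlap, yet the test did not pass, with a log2 fold change of −0.97 (SE 0.28, edgeR adjusted p = 0.328). Its reads fell on 14 junctions, of which the largest, circRNA1171 (chromosome 6, 57016030 to 57048318, 7 exons), took 32.2%. Hosts whose sleeve gastrectomy libraries all lay below all sham libraries numbered 4 of 1337 (0.299%) and those all above numbered 6 (0.449%). With labels dealt at random and no ties, 5 and 5 libraries separate fully, in either direction, with probability 0.00794. The shares of hosts seen are not larger than that, so separation alone was not read as a result. Ppara, the nuclear receptor that switches on fatty acid oxidation, had 1274, 2216, 2219, 2558 and 1669 CPM in sham and 1046, 552, 751, 1405 and 1299 CPM after sleeve gastrectomy, with a log2 fold change of −0.94 (SE 0.32, edgeR adjusted p = 0.506). Sham 1 lay inside the sleeve gastrectomy range, and the other 4 sham libraries lay above it. Its 3 tested circles share 1 start on chromosome 7, 126667195, and each had fewer reads after sleeve gastrectomy: 81 and 52 for circRNA1100 (also written circRNA9346), 54 and 34 for circRNA1101, and 24 and 7 for circRNA4145.

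Among signalling kinases and their regulators, Irak3, which restrains Toll-like and interleukin 1 receptor signalling, had 546, 500.5, 261, 448 and 417 CPM in sham and 1743, 1103, 751, 771 and 1209 CPM after sleeve gastrectomy. All 5 sleeve gastrectomy libraries lay above the sham range, with a log2 fold change of 1.34 (SE 0.42, edgeR adjusted p = 0.498). Of its reads 79.3% were of circRNA1047 (chromosome 7, 64959568 to 64961215, 3 exons), with 12, 7, 3, 3 and 7 in sham and 23, 16, 7, 12 and 21 after sleeve gastrectomy. Map3k5, a stress-activated kinase also called ASK1, had 1456, 2788, 4699, 2110.4 and 1848 CPM in sham and 1743, 1042, 887, 1586 and 1792 CPM after sleeve gastrectomy, with a log2 fold change of −0.85 (SE 0.30, edgeR adjusted p = 0.614). Sham 3 was the highest and sham 1 fell inside the other group. Pik3c2g, a class II phosphoinositide kinase of liver that acts in insulin signalling, had 6963, 8508, 7439.7, 4668 and 7751 CPM in sham and 3719, 3064, 4437, 6299.99 and 4928 CPM after sleeve gastrectomy, with a log2 fold change of −0.65 (SE 0.23, edgeR adjusted p = 0.546). Sham 4 was the one sham library inside the sleeve gastrectomy range. It formed 30 junctions, and circRNA1579 (chromosome 4, 173885674 to 173889303, 2 exons) took 63.3% of its reads. Map4k5, a kinase of the Ste20 family, had 4 reads in sham and 33 after sleeve gastrectomy, and the phosphatase Ptpn12 had 2 and 37. Both had most of their reads in identifier entries, 75.7% and 56.4%, and neither passed (edgeR adjusted p = 0.997 and 0.498).

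Exchange factors for small GTPases, the class of Dennd1b, had values in both directions, and Dennd1b alone passed. Ralgps2, an exchange factor for Ral and one of the more abundant hosts, had 8602, 8937, 7439.7, 12790.4 and 11686 CPM in sham and 8717, 4106, 4505, 8747 and 5555 CPM after sleeve gastrectomy, with a log2 fold change of −0.64 (SE 0.22, edgeR adjusted p = 0.506). The ranges overlapped through sleeve gastrectomy 1 and 4. Of its reads 93.3% were of circRNA2745 (chromosome 13, 74512347 to 74520636, 3 exons), an identifier entry. Dnmbp, an exchange factor for Cdc42, had 2549, 2073, 2023, 2622 and 2862 CPM in sham and 3545, 5086, 3822, 2855 and 3449 CPM after sleeve gastrectomy, with a log2 fold change of 0.62 (SE 0.25, edgeR adjusted p = 0.997). Its main circle, circRNA2198 (chromosome 1, 263633066 to 263633397), is a single exon of 332 bases with 98.3% of the reads, and at this junction all 5 sleeve gastrectomy libraries lay above all 5 sham libraries in CPM.

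Of secreted liver proteins, haptoglobin (Hp), which binds free haemoglobin, had 1047, 786, 457, 384 and 2623 CPM in sham and 639, 368, 68.3, 453 and 44.8 CPM after sleeve gastrectomy, with a log2 fold change of −1.74 (SE 0.57, edgeR adjusted p = 0.506). Sham 5 was far above the rest, and the groups overlapped through sham 3 and 4. The reads of Hp came from 6 junctions, all listed as intronic. Of these, ciRNA39, ciRNA369, ciRNA752 and ciRNA1379 share the start 42098081 on chromosome 19 and end between 42098301 and 42098307. Complement C3 had 2685, 3503, 2219, 1471 and 1371 CPM in sham and 3603, 4841, 2798, 4079 and 3091 CPM after sleeve gastrectomy, with a log2 fold change of 0.71 (SE 0.26, edgeR adjusted p = 0.68). Its reads came from 31 junctions, and 67.7% were of the intronic ciRNA144 (chromosome 9, 9739071 to 9740171). A further entry, ciRNA513, has the same start and ends 1 base earlier, with 9 reads in sham and 27 after sleeve gastrectomy.

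Proteases, enzymes and nuclear factors made up most of the rest. Nrdc, a metalloprotease called nardilysin, had 2276, 1930.3, 1762, 3006 and 1371 CPM in sham and 2906, 4045, 3208, 4396 and 3046 CPM after sleeve gastrectomy, with a log2 fold change of 0.76 (SE 0.26, edgeR adjusted p = 0.506). The host overlapped at sham 4, while its main junction, circRNA4452 (also written circRNA2889, chromosome 5, 128678700 to 128681202), did not overlap in CPM, with 49, 27, 23, 40 and 23 reads in sham and 50, 61, 47, 85 and 66 after sleeve gastrectomy. Aldh1l1, a folate enzyme, had 23 reads in sham and 65 after sleeve gastrectomy. Aox2, an aldehyde oxidase, had 46 and 8, of which sham 1 and 3 gave 22 and 16. Ext2, which builds heparan sulfate chains, had 34 and 6, and the transcription factor Tfcp2 had 41 and 14. The deubiquitinase Usp7 had 12 and 49 reads, 93.4% of them in ciRNA180, an identifier entry listed as intronic. Luc7l2, a splicing factor of the U1 particle, had 7 and 42. The adjusted p of these 7 hosts in edgeR was 0.506 for Nrdc, 0.68 for Usp7, 0.88 for Luc7l2 and 0.997 for the other 4. The host ENSRNOG00000030199, recorded as transmembrane protein 192 of lysosomes, had 1411, 2645, 1958, 1919 and 2027 CPM in sham and 1162, 735, 1092, 1224 and 1299 CPM after sleeve gastrectomy. All 5 sleeve gastrectomy libraries lay below the sham range, with a log2 fold change of −0.83 (SE 0.31, edgeR adjusted p = 0.68), and its reads were all from identifier entries.

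A group of 3 named hosts were listed at 0 in all 5 sleeve gastrectomy libraries. Tatdn1, of the TatD family of deoxyribonucleases, had 5, 11, 6, 4 and 0 reads in sham libraries 1 to 5. Kdm4a, a histone demethylase, had 6, 0, 0, 7 and 15 reads in sham. ENSRNOG00000038999, recorded as class I histocompatibility gene RT1-A1, had 13, 10, 0, 3 and 0 reads in sham; genes of that family are near copies of one another, so the assignment of its reads is uncertain. Each was also at 0 in 1 to 2 sham libraries, and none passed (edgeR adjusted p = 0.328, 0.493 and 0.498). Of their reads, 96.2%, 35.7% and 100% came from identifier entries, and no fold is given for them.

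The other hosts whose groups did not overlap are named after their values were seen. C2, a complement protease, had 34 reads in sham and 9 after sleeve gastrectomy, and Mettl9, a histidine methyltransferase, had 109 and 82. Higher in all 5 sleeve gastrectomy libraries were Rad9b, of a DNA damage checkpoint clamp, with 7 and 33 reads, Mtss1, which shapes membranes and actin, with 69 and 126, Dock3, an exchange factor for Rac, with 12 and 36, and the translation initiation factor Eif4g3, with 41 and 80. The adjusted p was 0.997 for each of these 6 in edgeR.

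At the level of single junctions edgeR called 0 of 1519 (0% lower and 0% higher; smallest adjusted p = 0.365). At an unadjusted p under 0.05 there were 29 lower (1.91%) and 30 higher (1.97%), and DESeq2 and limma-voom also called 0, with 61 and 104 at an unadjusted p under 0.05. The groups did not overlap, lower, at 6 junctions (0.395%) and, higher, at 7 (0.461%). Together these were 13 of 1519, a share slightly above the 0.00794 that labels dealt at random give without ties. Separation alone was not read as a result for junctions either. The 16 junctions of smallest p include circles of Upp2, Dennd1b, Nrdc, Pik3c2g, Dnmbp, Usp7 and Ralgps2 named above, and circles of the hosts Tatdn1, ENSRNOG00000038999 and Map3k5. For Map3k5 this is circRNA1957 (chromosome 1, 15488393 to 15494771), with 28, 33, 59, 25 and 31 reads in sham and 22, 11, 12, 31 and 30 after sleeve gastrectomy, which overlapped, and a log2 fold change of −0.93 (SE 0.33, edgeR adjusted p = 0.926). Of the others, ciRNA195 (chromosome 14, 2924636 to 2925809) is listed as intronic in Evi5, a regulator of Rab GTPases and cell division. It was read 2, 0, 2, 0 and 0 times in sham and 11, 3, 8, 7 and 5 times after sleeve gastrectomy. Its log2 fold change was 2.88 (SE 1.03, edgeR adjusted p = 0.926). The intergenic circRNA5968 (chromosome 10, 92474821 to 92476192) went the other way, with 18, 9, 15, 7 and 10 reads in sham and 3, 5, 0, 7 and 0 after sleeve gastrectomy, and a log2 fold change of −2.04 (SE 0.73, edgeR adjusted p = 0.926). At both, the 2 groups did not overlap in CPM. Both are identifier entries, so their zeros carry the limit given above, and the folds and the separation rest partly on those zeros.

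Lrrc20, a gene of leucine-rich repeats, gave circRNA989 (also written circRNA15437, chromosome 20, 31102476 to 31170056), with 4, 2, 0, 5 and 6 reads in sham, which is listed at 0 in all sleeve gastrectomy libraries. The host ENSRNOG00000009273, recorded as an alpha-2u globulin, a family of near-identical secreted proteins, gave circRNA16525 (chromosome 5, 77248427 to 77341841), with 31 reads in sham 2 and 5, which is listed at 0 in the other 3 sham and all 5 sleeve gastrectomy libraries. Ptms, which encodes the nuclear protein parathymosin, gave circRNA8183 (chromosome 4, 157436084 to 157436371), with 26 reads in sleeve gastrectomy 1 and 5, which is listed at 0 in the other 8 libraries. Both circRNA16525 and circRNA8183 are identifier entries. A neighbouring entry, circRNA10721, ends 6 bases earlier and was read 3 times in sham 2 and 11 times in sleeve gastrectomy 3. With junctions joined whose starts and ends both lay within 10 bases, an alternative chosen after the data were seen, the joined Ptms circle had a log2 fold change of 3.22 (SE 1.32, edgeR adjusted p = 0.997). Such near neighbours were met at 527 of the 21068 junctions of the table, and 0 junctions passed when they were joined.

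The mix of circles within a host was tested in 259 hosts with 650 tested junctions, and 0 (0%) passed in edgeR (smallest adjusted p = 0.998), with 3 (1.16%) at an unadjusted p under 0.05. Among them were Ern1 and Arih1, and Ugt2b35 came next after the 3. In Ern1 and Arih1, a minor circle was read after sleeve gastrectomy and is listed at 0 reads in sham, beside a main circle read in both groups. Ern1, the sensor IRE1 of protein folding stress, had 0 and 13 reads of circRNA8399 (also written circRNA2871) beside 229 and 214 of circRNA448. As circRNA2871 is an identifier entry, its zeros carry the limit given above. Arih1, a ubiquitin ligase, had 0 and 16 reads of circRNA2373 beside 41 and 37 of circRNA2786. In Ugt2b35, a glucuronosyltransferase, ciRNA549, listed as intronic, had 2 and 25 reads beside 1100 and 1138 of the abundant circRNA9738 (also written circRNA2473). The span of ciRNA549 encloses that of circRNA9738, whose ends lie close by.

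By class, exonic circles took 83.9 ± 0.886% of the reads in sham and 83.4 ± 1.68% after sleeve gastrectomy (n = 5 and 5, SD). Circles listed as intronic took 6.10, 6.46, 5.09, 5.34 and 5.23% in sham libraries 1 to 5 and 6.37, 5.57, 7.10, 6.40 and 6.67% after sleeve gastrectomy. The ranges overlapped, and the means of 5.64 ± 0.604% and 6.42 ± 0.561% did not differ past the threshold (two-sided exact permutation p = 0.0635, adjusted over 14 measures 0.889; smallest possible p 0.00794). Among tested junctions the intronic class had a median log2 fold change of 0.26 over 108 junctions with 41 below 0, against −0.01 over all 1519 with 766 below 0. Both kinds of entry hold circles listed as intronic, with a median genomic span of 612 bases in symbol entries and 8880 in identifier entries. Some of these circles enclose exonic circles, so the class does not measure loops within introns alone.

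Circles of 1 exon took 8.98 ± 0.529% of exonic reads in sham and 9.87 ± 1.21% after sleeve gastrectomy (n = 5 and 5, SD, exact permutation p = 0.175, adjusted 0.923), and their 69 tested junctions had a median log2 fold change of 0.17. Circles of 5 or more exons took 16.8 ± 0.578% and 16.1 ± 1.11% (exact permutation p = 0.238, adjusted 0.923), and their 212 tested junctions had a median of −0.10. Circles of 2 to 4 exons, the largest class with 986 tested junctions, had a median of −0.01. Intergenic circles took 10.4 ± 0.981% and 10.2 ± 1.81%, with 72 of 144 tested junctions below 0. All are identifier entries, so their zeros carry the limit given above. The lowest share, 8.21%, was in sleeve gastrectomy 3, where the abundant circRNA6045 is listed at 0. The highest sham share, 12.1%, was in sham 4, where that circle had 35752 RPM. The groups detected 4198 ± 659 and 4383 ± 817 junctions and 2349 ± 256 and 2433 ± 293 hosts per library, with 1.69 ± 0.0773 and 1.70 ± 0.117 junctions per host (SD, n = 5 and 5). The 10 most abundant junctions took 10.7 ± 1.26% and 10.7 ± 0.896% of the reads. Junctions seen in 1 library of the 12 of the series, relapse included, took 7.97 ± 0.329% and 7.91 ± 0.290%. Of the 14 measures, 0 passed the adjusted threshold and 0 had an unadjusted p under 0.05.

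**Figure D4:**
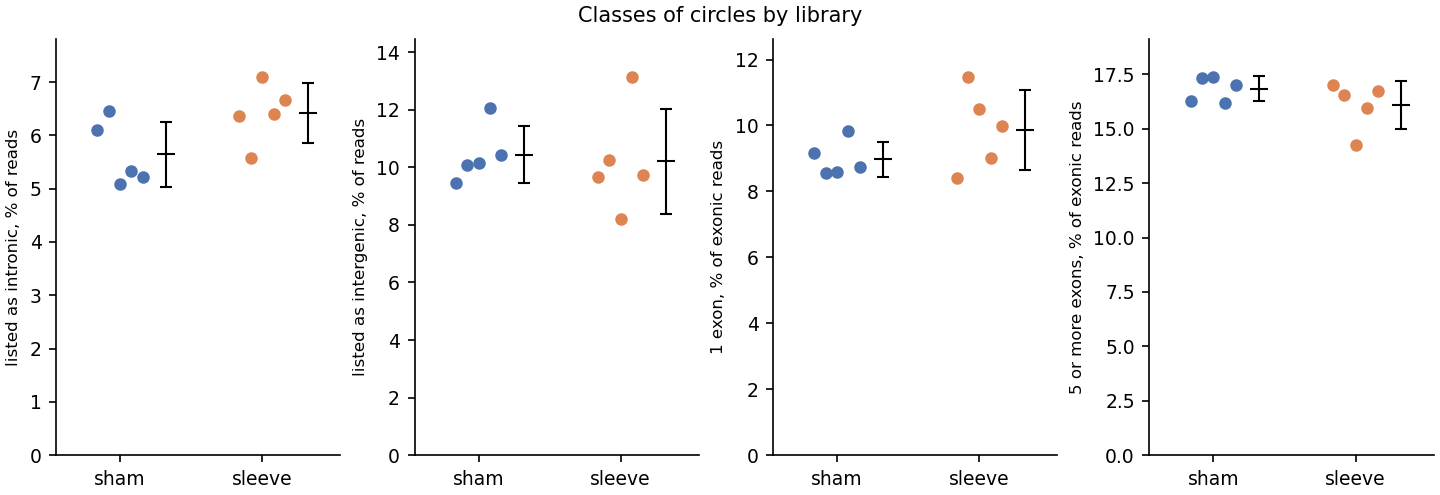
Shares of back-splice reads per library, in percent on axes from 0, for circles listed as intronic or intergenic (of all reads) and for circles of 1 exon and of 5 or more exons (of exonic reads), with the mean and SD of each group of 5 as a black bar. The sham (blue) and sleeve gastrectomy (orange) ranges overlap in all 4.

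Of the 10 most abundant junctions, 0 passed (edgeR adjusted p = 0.996 for each). CircRNA278 of Spidr, a gene of double-strand break repair, led by its mean over the 10 libraries, with 17890 ± 1988 RPM in sham and 20881 ± 3002 after sleeve gastrectomy, and circRNA820 of Nf1x followed with 17011 ± 3311 and 18208 ± 3465 (SD, n = 5 and 5). CircRNA508 of Cdyl, a chromatin co-repressor, had 9498 ± 981 and 11742 ± 2678, and circRNA2052 of Cyp2c7, a cytochrome P450, had 8996 ± 1058 and 9079 ± 1548. The junction of circRNA9738 in Ugt2b35 had 10644 ± 4261 and 9578 ± 3180. The intergenic circRNA6045, an identifier entry, had 17952 ± 10072 and 11031 ± 6380.4: its highest value was 35752 in sham 4 and its lowest 0 in sleeve gastrectomy 3, and the other 8 libraries had 11220.3 to 15621. The last 4 of the 10 were circRNA2673, intergenic, circRNA2050 of Cyp2c7, circRNA997 of Slc16a10, an aromatic amino acid carrier, and circRNA2223 of Sult1c3, a sulfotransferase. Sult1c3 had 4582 ± 2487 RPM in sham and 7405 ± 2853 after sleeve gastrectomy, and its ranges overlapped.

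Sorted by function, 16 gene lists gave 2 members past the threshold, Upp2 and Dennd1b. Over all tested hosts the median log2 fold change was 0.00. The inflammatory and acute phase list lay lowest, with a median of −0.69 over 8 tested members, 6 of them below 0. Besides Irak3 and Map3k5, it held Il1r1, the signalling receptor of interleukin 1, with 455, 858, 653, 1407 and 835 CPM in sham and 407, 245, 478, 363 and 538 CPM after sleeve gastrectomy, a log2 fold change of −1.02 (SE 0.49, edgeR adjusted p = 0.997). Sham 1 was the one sham library inside the other group's range, and 89.6% of its reads were of identifier entries.

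Metabolic lists scattered around 0. Glucose production and fructose use had 5 of 8 tested members below 0 (median −0.10): Pck1, the controlling enzyme of gluconeogenesis, had 1456, 1287, 1566, 1599 and 1133 CPM in sham and 755, 1226, 819, 816 and 1030.3 CPM after sleeve gastrectomy (log2 fold change −0.60, SE 0.34), Tkfc, which phosphorylates fructose products, stood at a log2 fold change of 0.97 (SE 0.55), and Gbe1, the glycogen branching enzyme, a log2 fold change of 0.54 (SE 0.41). For Pck1, sleeve gastrectomy 2 was the one library of its group above the lowest sham library. Fatty acid oxidation had 8 of 14 below 0 (median −0.13), with Ehhadh, a peroxisomal enzyme (log2 fold change −1.16, SE 0.59), and Acadvl, the mitochondrial dehydrogenase of very long chains (log2 fold change 0.86, SE 0.49), on opposite sides. Fatty acid synthesis had 4 of 9 below 0 (median 0.08), among them Acaca, acetyl-CoA carboxylase (log2 fold change −0.52, SE 0.77), while Acly, which makes cytosolic acetyl-CoA, stood at a log2 fold change of 0.82 (SE 0.43), whereas Fasn, fatty acid synthase, had 2 reads in sham and 11 after sleeve gastrectomy. Cholesterol and bile acid genes had 9 of 14 below 0 (median −0.18). Cyp7a1, which sets the pace of bile acid synthesis, had 19 and 5 reads, Slco1a1, an organic anion carrier, 28 and 14, and Abcb4, the phospholipid exporter of bile, 10 and 32.

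Insulin and nutrient signalling had 4 of 8 below 0 (median −0.06). Beside Pik3c2g stood its relative Pik3c2a (log2 fold change 0.62, SE 0.48), where sleeve gastrectomy 2 had 2696 CPM and the next library of its group 896. Rictor, a subunit of the kinase complex mTORC2, had 19 and 11 reads. Xenobiotic and steroid enzymes had 11 of 17 below 0 (median −0.13), yet the member of smallest p was on the other side: Ugt2b15, a glucuronosyltransferase, had 1638, 2645, 1958, 1599 and 1669 CPM in sham and 3022, 2942, 2935, 2538 and 2553 CPM after sleeve gastrectomy (log2 fold change 0.56, SE 0.26). Its groups overlapped only at sham 2, and reads of its gene family may be split between near copies. Sult1c3 (log2 fold change 0.66, SE 0.39) and Fmo5, a flavin monooxygenase with 10 and 26 reads, followed. Plasma proteins had 7 of 16 below 0 (median 0.11), with the clotting factor F9 at 18 and 44 reads. Amino acid, urea and pyrimidine catabolism had 12 of 24 below 0 (median 0.00); after Upp2 came Kynu, a kynureninase (log2 fold change −0.72, SE 0.46), and Cps1, which feeds ammonia into the urea cycle (log2 fold change −0.43, SE 0.29).

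Mitochondrial genes had 1 of 4 tested below 0 (median 0.12), and the subunits of succinyl-CoA ligase had values on both sides: Suclg1 had 23 and 7 reads, Sucla2 12 and 28, and Suclg2 91 and 110. Endoplasmic reticulum folding had 6 of 11 below 0 (median −0.17), with the chaperone Canx (log2 fold change −0.38, SE 0.26), the disulfide isomerase Pdia3 at 10 and 29 reads, and Edem1, of the degradation of misfolded proteins (log2 fold change 0.49, SE 0.40). Membrane traffic, the list that holds Dennd1b, had 11 of 26 below 0 (median 0.12). Widely conserved circular RNA hosts had 13 of 28 below 0 (median 0.04), with Fam120a (log2 fold change −0.56, SE 0.26), Picalm, of clathrin coats (log2 fold change −0.98, SE 0.54), and Homer1, a synaptic scaffold (log2 fold change −0.58, SE 0.31). Factors that process circular RNAs were tested as hosts for 3 of 31 members: Hnrnpm (log2 fold change 0.71, SE 0.49), Tnrc6a with 9 and 14 reads and Tnrc6b with 22 and 23. Cell cycle and growth had 2 of 5 below 0 (median 0.19), with Yap1 and its partner Tead1 on opposite sides (log2 fold change −0.65, SE 0.43, and log2 fold change 0.29, SE 0.26) and Egfr at 49 and 34 reads. Of 24 circadian clock genes, 14 had circular reads and 0 were abundant enough to test. The adjusted p of the named list members in edgeR was at least 0.498, Upp2 and Dennd1b apart.

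**Figure D5:**
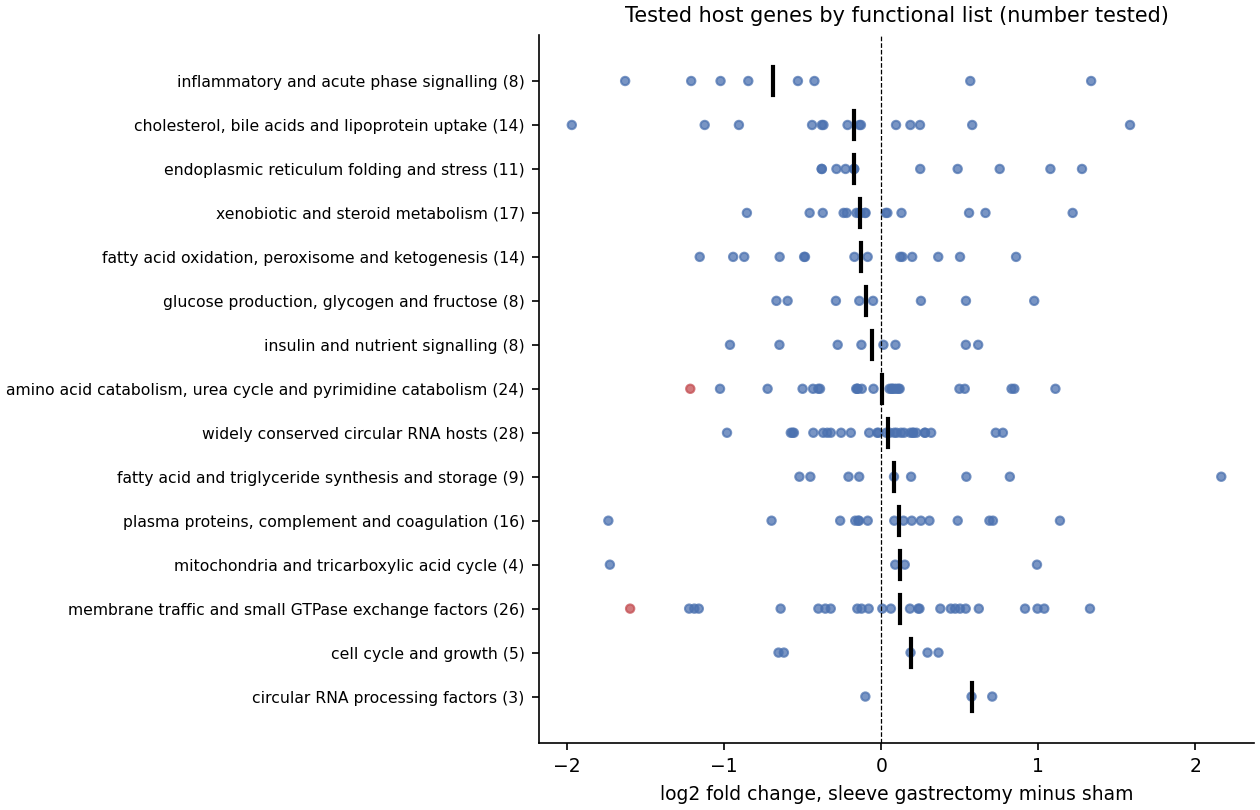
Log2 fold change (sleeve gastrectomy minus sham) of each tested member (points) of the 15 functional lists with at least 3 tested hosts; the black bar is the list's median and the dashed line the median of all tested hosts. The 2 members past the threshold (red) are Upp2 and Dennd1b; the lists' medians lie between −0.69 and 0.58.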

How the data were processed

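Total RNA of liver was depleted of ribosomal and linear RNA and sequenced, per the labels' protocols. The submitters' processing notes name cutadapt 1.9, FastQC, TopHat2 2.0.10 and the build Rnor_6.0; the caller of back-splice junctions is not given in the sources used here. The deposited table gives whole back-splice read counts per junction and library; its 12 normalized columns were not used. The table holds 21876 entries: 18175 named by a gene symbol and 3701 by an Ensembl identifier or as intergenic. Entries with the same chromosome, end and strand, and starts at most 1 base apart between the 2 kinds, were summed to 21068 junctions (808 of them had 2 entries), then by host gene to 6021 hosts, with 1449 of 1696 identifiers joined to a symbol. The 12 libraries were fitted as 3 groups with edgeR 4.0.16 in R 4.3.3 (TMM scaling, robust quasi-likelihood test, filterByExpr set to 5 reads and 15 in total), contrasting sleeve gastrectomy with sham. P-values were adjusted by Benjamini-Hochberg over all tested features at 0.05. The choice of junction within a host used diffSpliceDGE of edgeR. Library measures were compared by exact permutation over the 10 libraries. The fits were also run on simulated data, of which no outcome is given here. The junction simulations assumed a smaller spread than was estimated for hosts, so they do not set the power of the junction tests. DESeq2 1.42.0, limma 3.58.1, other filters and scalings, and each library left out were tried as alternatives. Hosts and junctions were named in order of p, and up to 3 per gene list. The comparison, the lists and the rules were chosen with earlier results of these data known. 1 host is not reported here.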

Additional observations from a re-analysis of the deposited data

Results flagged for a closer look

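Within 192 groups of 5 libraries, 19 (9.9%) had 1 library far from the other 4. The rule would flag about 1 in 20 for independent, normally distributed values. Many values here are small counts with ties at 0, and the measures share libraries, so the 2 rates cannot be compared. Sham 1 stood apart in back-splice reads (30213; next 21509), junctions detected (5362) and hosts detected (2805). Sleeve gastrectomy 4 had the lowest exonic share, 80.5%, and the median genomic span was lowest in sham 4 (4544 bases) and in sleeve gastrectomy 3 (4801 bases). Among hosts, the library apart was sham 3 for Dennd1b (914 CPM), Map4k5 (261 CPM, 4 reads) and Rictor (718 CPM). It was sham 5 for Ptpn12 (119 CPM, 2 reads), sham 2 for Luc7l2 (429 CPM) and sham 1 for Fasn (91.0 CPM, 2 reads). Map4k5, Ptpn12 and Fasn had 0 reads in the other 4 sham libraries. After sleeve gastrectomy the library apart was library 1 for Ext2 (232 CPM) and Canx (2964 CPM), library 2 for Pik3c2a (2696 CPM) and library 5 for Acaca (717 CPM). For circRNA5889 of Dennd1b, sleeve gastrectomy 3 had 143 CPM and the other 4 had 0. The intergenic circRNA6045 was at 35752 RPM in sham 4 and at 0 in sleeve gastrectomy 3.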

How the results depend on the processing

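The count of hosts past the threshold was 2; it was 0 with DESeq2, a minimum count of 10, the 2 groups fitted alone, a fit that is not robust, or host names as written, 1 with symbol entries alone, and 0 to 2 with each library left out. With the replicate block it was 0 for hosts, junctions and junction choice. No pairing by replicate number was seen (correlations −0.096 to 0.016, 0 of 5 best with their own number). These correlations rest on small counts and cannot exclude pairing. Dennd1b passed in 3 of 10 other alternatives (log2 fold change −1.68 to −1.17) and 4 of 10 with a library left out (−1.80 to −1.36), and Upp2 in 4 (−1.24 to −1.17) and 2 (−1.40 to −1.05). Junctions and junction choice stayed at 0 under the alternatives run. Signs turned for Pik3c2a (−0.0376 to 1.09), Rictor (−1.57 to 0.00428), Suclg2 (−0.0108 to 0.24) and Tnrc6b (−0.40 to 0.35; 0.23 in voom) with a library left out. So did differences, sleeve gastrectomy minus sham, in junctions detected (−28.75 to 476.2), exonic (−0.879 to 0.183), intergenic (−0.968 to 0.266) and 2 to 4 exon shares (−0.475 to 0.355), span (−2.8 to 135.2; −120.6 with symbol entries), the 10 most abundant junctions (−0.238 to 0.552; −0.0538 from 2 reads, −0.426 thinned), junctions of 1 library (−0.186 to 0.0465; 0.0722 from 2 reads, 0.0693 thinned), junctions per host (−0.0228 to 0.0448; −0.00692 thinned) and identifier share (−1.05 to 0.247). The cause was not tested.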
